A study of Mus musculus with 2 samples.

Results

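Within the CD8 T cells of EMT6 tumours, 308 cells carried at least 3 transcripts from the genes Il2, Il3 and Csf2 in sum. They were 308 of the 16770 cells kept from 2 droplet single-cell RNA libraries, with 194 of 9155 cells in the library from mSTAR1302-treated mice and 114 of 7615 in the library from vehicle-treated mice. EMT6 is a transplantable mouse mammary carcinoma line. The tumours grew under the skin of BALB/c mice aged 4 to 6 weeks, which were divided between mSTAR1302 and vehicle at tumour volumes of 80 to 150 mm3. mSTAR1302, described by its makers as an antibody against the T cell receptor chains Vβ13-2 and Vβ13-3 joined to interleukin-2 (IL-2), was given weekly into the peritoneum for 2 cycles. CD4+ and CD8+ cells were taken from digested tumours with magnetic beads. Each treatment was 1 library, and how many mice went into it is not stated in these sources. Cells of 1 library are not replicates, so no test between treatments was made, no difference has a replicate check, and all 95% intervals cover counting error only.

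A droplet barcode counted as a cell with at least 1000 UMIs (unique molecular identifiers, each standing for 1 captured RNA molecule), at least 500 genes and at most 10% mitochondrial UMIs. The CD8 gate took cells with at least 2 UMIs of the CD3 genes Cd3d, Cd3e and Cd3g, 1 or more UMIs of Cd8a and Cd8b1 and 0 of Cd4 and Foxp3. Cells with more than 2 UMIs of the cell-cycle genes Mki67, Top2a and Birc5, or more than 2 of the interferon-induced genes Ifit1, Ifit3 and Rsad2, were left out. Cells of this gate with at least 3 UMIs of Il2, Il3 and Csf2 are called cytokine cells here. The other CD8 cells of the gate, with at most 2 such UMIs, numbered 4867 with mSTAR1302 and 1611 with vehicle. The 3 genes chose the cells, so their levels are given as a description.

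IL-2 is the main growth factor of T cells, IL-3 acts on blood cell progenitors, mast cells and basophils, and GM-CSF, the product of Csf2, acts on macrophages, granulocytes and dendritic cells. T cells switch on the 3 genes after engagement of the T cell receptor, through transcription factors of the NFAT, AP-1 and NF-kappaB families, and the messages are short-lived. The chemokines CCL3 and CCL4 attract T cells and myeloid cells, XCL1 attracts cross-presenting dendritic cells through XCR1, and interferon gamma, the product of Ifng, activates macrophages and raises antigen presentation.

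The gate fixed the T cell and CD8 identity of the cytokine cells through the CD3 and CD8 genes, so these genes are no check of the label. Levels are given in CPM (counts per 1e6), the share that a gene takes of all UMIs of a set of cells. The 8 T cell markers, which are the gated CD3 genes with Trac, Trbc1, Trbc2, Lat and Cd2, summed to 6732 CPM in cytokine cells and 6510 CPM in other CD8 cells with mSTAR1302, and to 6976 and 7113 CPM with vehicle. Trac, the T cell receptor alpha constant gene, which the gate did not use, was at 573 against 671 CPM and at 804 against 813 CPM. The 8 markers of mast cells and basophils, which also transcribe cytokine genes, summed to 2.5 and 5.36 CPM in the cytokine cells, with 5 and 7 of the 8 at 0, among them Cpa3, Fcer1a and Ms4a2 in both libraries. In the other CD8 cells they summed to 2.07 and 3.45 CPM, slightly less, and Fcer1a and Ms4a2 were at 0 there too. The 8 natural killer and innate lymphoid markers summed to 10.5 CPM and 20.8 CPM, against 45.9 and 163 CPM in the other CD8 cells. Klra8 and Klra4 were at 0 in the cytokine cells and in the other CD8 cells of both libraries, so they do not tell these sets apart. The 8 macrophage markers summed to 18.0 CPM against 54.6 CPM with mSTAR1302 and to 85.8 against 993.8 CPM with vehicle. Lyz2, a macrophage gene, stood at 32.8 CPM in vehicle cytokine cells and 594 CPM in the other vehicle CD8 cells, although 14.04% of vehicle cytokine cells and 6.64% of the others held at least 3 UMIs of the macrophage list. The higher sum in the others thus came from few cells. The 7 genes that mark these cells, Ccl3, Ccl4, Il3, Il2, Ifng, Csf2 and Xcl1, took 4.01% of all their UMIs with mSTAR1302 and 2.57% with vehicle, against 0.280% and 0.279% in the other CD8 cells, a contrast that Il2, Il3 and Csf2, which chose the cells, set in part.

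Cytokine cells were deeper than the CD8 cells around them. Their median was 9522 UMIs against 5969 with mSTAR1302, and 12287 against 9372 with vehicle. The libraries held 96486469 and 110026997 UMIs in all, and their kept cells had medians of 6260 and 8448 UMIs. The sums behind the CPM values were 1998226 and 1491995 UMIs in cytokine cells and 32903419 and 15940515 UMIs in the other CD8 cells. Barcodes shared between the libraries numbered 17, of which 1 was a cytokine cell. No doublet caller was used, and cells over 30000 UMIs, which can be droplets with several cells, numbered 1 and 0 among cytokine cells and 11 and 10 among the other CD8 cells.

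At full depth, cytokine cells were the smaller share of the CD8 gate with mSTAR1302, and at equal depth the shares differed by less than counting error. They were 194 of 5061 cells with mSTAR1302 (3.83%, exact Clopper-Pearson interval 3.32 to 4.40%) and 114 of 1725 with vehicle (6.61%, 5.48 to 7.89%), and mSTAR1302 minus vehicle was -2.78 percentage points (Newcombe interval -4.14 to -1.56). After every cell was thinned to 3000 UMIs, the shares were 2.32% (of 4434 cells) and 2.45% (of 1633), which put mSTAR1302 at -0.127 points from vehicle (-1.09 to 0.682), with 7 and 1 shallower cytokine cells and 620 and 91 shallower other cells left out. In cells of 6000 to 16000 UMIs, a window picked with the data in view, cytokine cells made up 5.21% and 6.30%, a difference of -1.09 points. Droplets read as macrophages, with no CD3 UMI and at least 5 UMIs of Lyz2, C1qa, C1qb, C1qc and Csf1r, gave 0 of 24 cells and 0 of 70 with 3 or more cytokine UMIs, which allows shares of up to 14.2% and 5.13% by the exact interval, at median depths of 9591.5 and 21859 UMIs.

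Most CD8 cells held no UMI of the 3 cytokines, and the cytokine cells formed a long tail. With mSTAR1302, 4520 cells of the gate had a summed count of 0, 288 had 1 and 59 had 2, while 54 had 3 or 4, 50 had 5 to 9, 66 had 10 to 49 and 24 had 50 or more. With vehicle the numbers were 1419, 138 and 54 outside the threshold and 37, 35, 30 and 12 inside it. The cells next to the threshold, with sums of 2 and of 3 or 4, were thus 59 and 54 with mSTAR1302 and 54 and 37 with vehicle. There was no gap in the distribution at 3 UMIs, so the set is a range of a continuous quantity. The median sum of a cytokine cell was 8 UMIs with mSTAR1302 and 7 with vehicle, and the highest were 565 and 549.

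**Figure D1:**
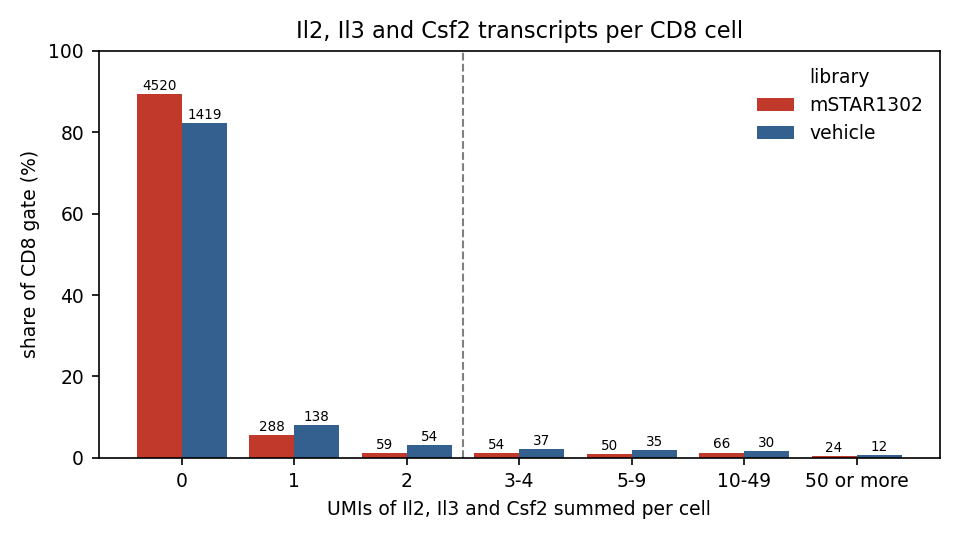
Share of the CD8 gate (per cent, vertical axis) by the UMIs of Il2, Il3 and Csf2 summed per cell (horizontal axis), with mSTAR1302 in red, vehicle in blue, the number of cells over each bar and the threshold of 3 UMIs as a dashed line. Cells with a sum of 0 number 4520 and 1419, and the bars on the right of the line hold the 194 and 114 cytokine cells.

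Csf2 was the cytokine seen most widely, while Il2 and Il3 came from few cells with very high counts. Csf2, which encodes GM-CSF, had a UMI in 166 of 194 cytokine cells with mSTAR1302 (85.6%) and in 103 of 114 with vehicle (90.4%), with 0 as the lowest, 4 and 5 as the median and 64 and 139 UMIs as the highest count. Il3 had a UMI in 71 cells (36.6%) and 26 cells (22.8%), with a median of 0 and highest counts of 534 and 319. Il2 had a UMI in 60 cells (30.9%) and 17 cells (14.9%), with a median of 0 and highest counts of 212 and 298. The 10 cells with the most of each gene held 68.4% of all Il2 UMIs of the mSTAR1302 cytokine cells, 78.7% of the Il3 UMIs and 27.6% of the Csf2 UMIs. With vehicle the same shares were 98.0%, 93.8% and 44.2%. The summed levels of Il2 (589 and 434 CPM) and Il3 (1480 and 857 CPM) therefore describe a handful of cells in each library. Outside the cytokine cells an Il2 UMI was seen in 1.34% and 1.68% of CD8 cells, at median depths of 5969 and 9372 UMIs. Macrophage-like droplets, at 9591.5 and 21859 UMIs, had one in 1 of 24 (4.17%, 0.105 to 21.1%) and 3 of 70 (4.29%, 0.893 to 12.02%), so single Il2 UMIs are not read as expression here, and the part of free RNA in them was not tested.

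Cells with Csf2 alone were the commonest kind. They were 91 of 194 with mSTAR1302 (46.9%) and 77 of 114 with vehicle (67.5%). All 3 cytokines were found in 22 cells (11.3%) and 4 cells (3.51%), which held 2823 of 5983 and 1301 of 3161 of the cytokine UMIs. Il3 together with Csf2 was found in 35 and 14 cells, Il2 with Csf2 in 18 and 8, Il2 with Il3 in 6 and 2, Il2 alone in 14 and 3, and Il3 alone in 8 and 6. The cells with all 3 genes were few and rich. A high cytokine sum makes it likelier to see all 3 genes, so this is given as a description.

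Over the whole CD8 gate, before the threshold was applied, the 3 genes were often found in the same cells. With mSTAR1302, Csf2 was detected in 47.4% of the 133 cells with an Il3 UMI (38.7 to 56.2%) and in 6.78% of cells without one (6.09 to 7.52%). With vehicle it was detected in 61.8% of 34 such cells (43.6 to 77.8%) and in 14.3% of the rest (12.7 to 16.1%). Il3 was detected in 22.4% of the 125 Il2 cells with mSTAR1302 and in 2.13% of the others, and in 13.6% of 44 Il2 cells with vehicle against 1.67%. These shares count cells with a single UMI too. At 3000 UMIs a cell the same shares for Csf2 were 50.7% against 4.63% with mSTAR1302 and 35% (7 of 20) against 7.38% with vehicle, so co-detection was also present when every cell had the same depth. For Csf2 in Il2 cells of the vehicle library the intervals overlapped, at 27.3% (14.96 to 42.8%) against 14.9% (13.3 to 16.7%).

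In the mm10 assembly, Il3 (ENSMUSG00000018914, chr11:54265303-54267277, minus strand) and Csf2 (ENSMUSG00000018916, chr11:54247271-54249667, minus strand) are neighbours, 15636 bases apart, and Il2 (ENSMUSG00000027720, chr3:37120523-37125959, minus strand) lies on another chromosome. Ccl3 (ENSMUSG00000000982, chr11:83647844-83649355, minus strand) and Ccl4 (ENSMUSG00000018930, chr11:83662584-83664683, plus strand) are also neighbours, 13229 bases apart. Ifng (ENSMUSG00000055170) is at chr10:118441046-118445892 on the plus strand and Xcl1 (ENSMUSG00000026573) at chr1:164931644-164935527 on the minus strand. Il2 and Il3 helped choose the cytokine cells and each had a median of 0 UMIs there, so no joint level is read from them. The windows of up to 250 bases before the RefSeq start sites of Il2, Il3 and Ccl3 are printed as examples from 2 chromosomes. They come from GRCm38.p6, read 5′ to 3′ on the gene's strand, and capitals mark GGAAA or its reverse complement TTTCC, the core bound by NFAT factors.
Il2 (chr3:37125960-37126204, minus strand): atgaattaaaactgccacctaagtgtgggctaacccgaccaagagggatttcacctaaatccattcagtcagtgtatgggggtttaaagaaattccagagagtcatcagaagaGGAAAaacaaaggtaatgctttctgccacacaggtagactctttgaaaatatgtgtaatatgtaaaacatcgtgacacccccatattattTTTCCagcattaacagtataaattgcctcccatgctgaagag
Il3 (chr11:54267280-54267529, minus strand): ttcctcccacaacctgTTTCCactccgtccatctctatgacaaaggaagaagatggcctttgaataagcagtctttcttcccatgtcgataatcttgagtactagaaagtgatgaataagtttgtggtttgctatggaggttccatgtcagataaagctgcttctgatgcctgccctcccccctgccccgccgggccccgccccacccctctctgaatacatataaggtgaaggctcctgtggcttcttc
Ccl3 (chr11:83649379-83649628, minus strand): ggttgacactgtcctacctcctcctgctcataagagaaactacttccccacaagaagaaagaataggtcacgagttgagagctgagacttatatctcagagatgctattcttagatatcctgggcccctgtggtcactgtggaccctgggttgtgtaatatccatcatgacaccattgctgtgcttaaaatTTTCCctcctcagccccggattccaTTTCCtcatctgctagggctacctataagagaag
The core occurred 2 times in the Il2 window, 1 time in the Il3 window and 2 times in the Ccl3 window, and 1 time each in those of Xcl1 and Ifng. It is a common word, found on either strand in 55.6% of 32851 windows of this kind. The AP-1 word TGAGTCA, searched on both strands and found in 4.46% of windows, was in none of these 5 windows. A match is a string of letters and not a bound site.

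Xcl1, Ccl1, Ccl3, Ifng and Ccl4 led the genes detected in at least 10% of cytokine cells of each library, ranked by the mean of the 2 log2 ratios to the other CD8 cells. Il13, whose folds were larger, missed that detection limit with vehicle. Ifng was at 12764 CPM in mSTAR1302 cytokine cells against 956 CPM in the other CD8 cells, 13.4-fold higher (exact conditional interval 13.1 to 13.6), and at 7020 against 808 CPM with vehicle, 8.69-fold higher (8.47 to 8.92). Single cells ranged from 0 through a median of 32.5 to 1588 Ifng UMIs with mSTAR1302 and from 0 through 16.5 to 927 with vehicle. The other CD8 cells had medians of 2 UMIs in both libraries, but single cells among them reached 2044 and 731, so the groups overlapped. Cytokine cells were 3.83% and 6.61% of the gate and held 44.8% and 44.9% of its Ifng UMIs.

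Ccl4 ran from 0 through a median of 30 to 2156 UMIs a cell with mSTAR1302 and from 0 through 4 to 1130 with vehicle. It was at 12518 against 1034 CPM (12.1-fold, 11.9 to 12.3) and at 6705 against 728 CPM (9.21-fold, 8.97 to 9.46). Its neighbour Ccl3 was at 9903 against 720 CPM (13.8-fold) and at 5605 against 585 CPM (9.58-fold), with medians of 18.5 and 1 UMIs a cell. Both chemokine genes were thus high in both treatments, yet in the vehicle library a cytokine cell at the median held only 1 Ccl3 UMI and the sum came from the upper part of the set. After thinning to 3000 UMIs, a Ccl3 UMI was detected in 71.7% of mSTAR1302 cytokine cells and 20.4% of other CD8 cells, and in 51.3% and 16.3% with vehicle.

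Xcl1, the ligand of dendritic cell XCR1, had the largest fold with mSTAR1302 among the 12 genes named by rule as higher in both libraries, at 1945 against 80.5 CPM (24.2-fold, 23.0 to 25.4). With vehicle it was at 4247 against 657 CPM (6.46-fold, 6.26 to 6.67), so its level was higher with vehicle on both sides. Single cells ranged from 0 through a median of 1 to 449 UMIs with mSTAR1302 and from 0 through 10 to 773 with vehicle. The fold depended on which cells were read, at 48.7 and 13.1 after thinning and 9.17 and 5.11 in cells with a Trbv UMI from segments other than Trbv13-2 and Trbv13-3. Ccl1, a ligand of the receptor CCR8, followed the same order at 1160 against 66.5 CPM (17.4-fold) and 2522 against 282 CPM (8.94-fold). Ccl5, a chemokine gene whose message memory CD8 cells hold in store, was lower in cytokine cells, at 772 against 3081 CPM and at 497 against 1148 CPM. Of the 9 chemokine genes listed, 6 and 7 passed 20 CPM on either side, and of these 5 and 4 were at least 2-fold higher and 1 and 2 at least 2-fold lower, with median differences of 3.69 and 2.69 on the log2(CPM + 1) scale. For comparison, 4.07% of 5081 genes were at least 2-fold higher and 6.73% lower with mSTAR1302, and 1.57% of 5478 higher and 2.59% lower with vehicle, with medians of -0.08 and -0.02 over all genes.

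**Figure D2:**
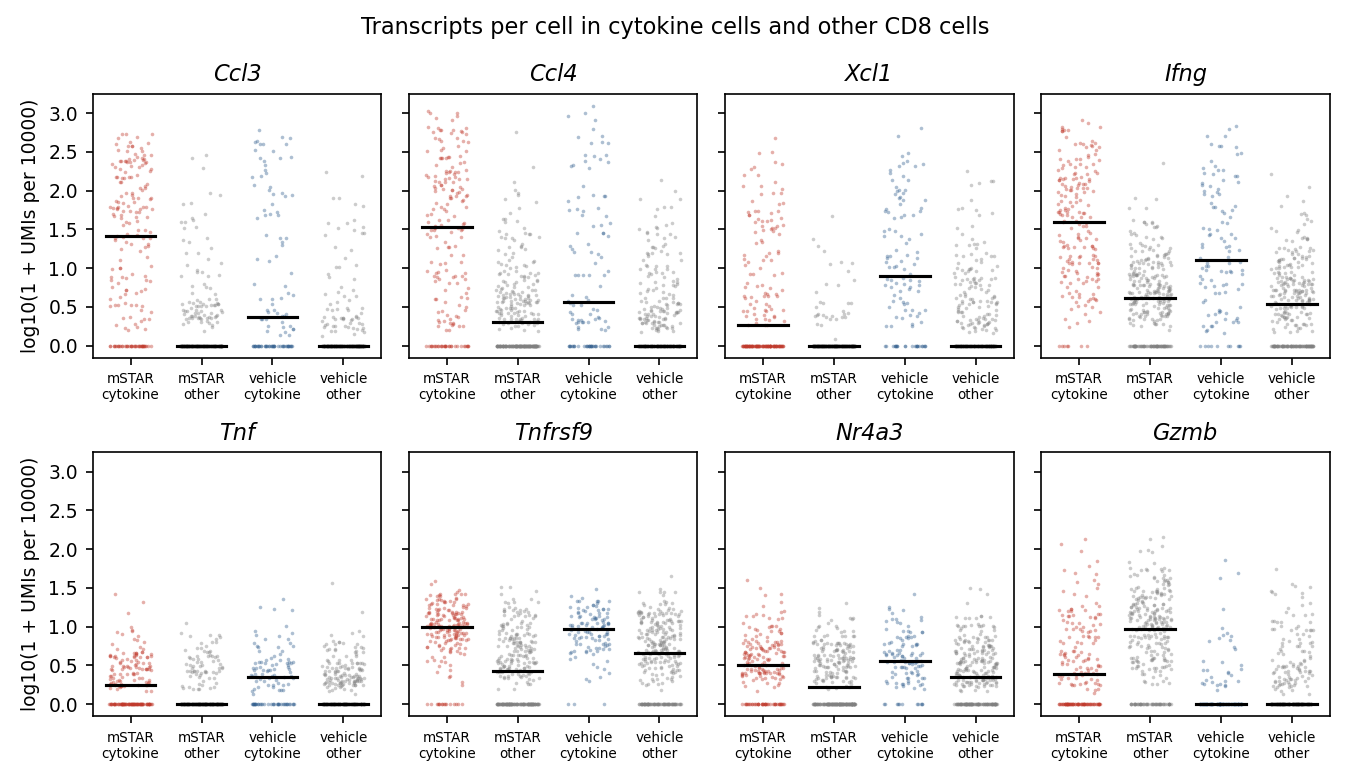
UMIs per 10000 in single cells on a scale of log10(1 + value) (vertical axis) for 8 genes, with 1 point per cell and the median as a black line, in the 194 and 114 cytokine cells (red with mSTAR1302, blue with vehicle) and in 300 randomly drawn other CD8 cells of each library (grey). Ccl3, Ccl4, Xcl1 and Ifng spread over a wide range in cytokine cells and overlap with the other CD8 cells, and Gzmb is higher in the other CD8 cells with mSTAR1302.

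These levels were higher in cells with more cytokine UMIs, though not at every step, and the threshold of 3 did not mark a single jump. With mSTAR1302, Ifng was at 848 CPM in cells with a sum of 0, 1670 at 1, 3407 at 2, 2791 at 3 or 4, 12190 at 5 to 9, 10990 at 10 to 49 and 30850 at 50 or more. With vehicle it was at 702, 1616, 1058, 2549, 3077, 7527 and 26280 CPM. Ccl3 followed, from 559 to 17890 CPM with mSTAR1302 and from 483 to 13770 CPM with vehicle. Cells with 1 or 2 cytokine UMIs, counted here among the other CD8 cells, were therefore already above those with 0 for Ifng and Ccl3 in both libraries. Gzma, the granzyme of the main effector population, went the other way with mSTAR1302, from 1229 CPM at 0 to 112 CPM at 10 to 49, and was at 551 CPM in the 24 cells at 50 or more.

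**Figure D3:**
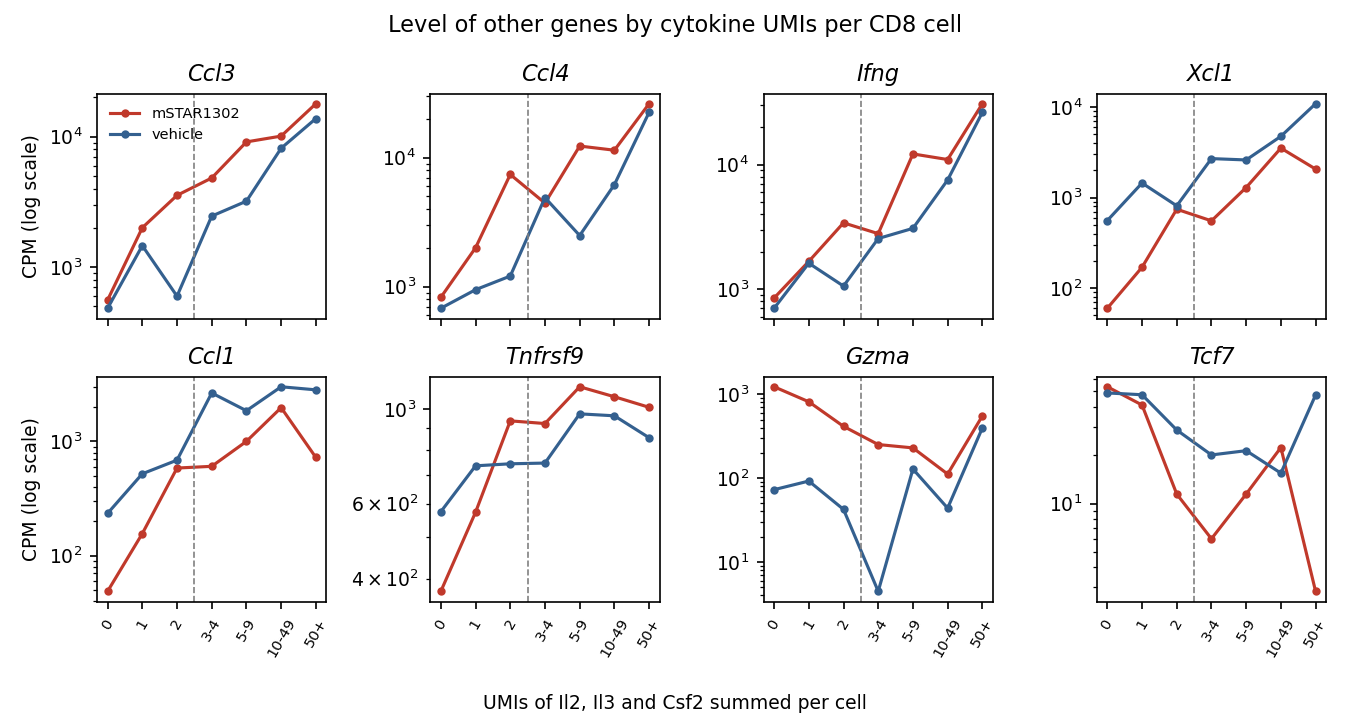
Level in CPM on a log scale (vertical axis) of 8 genes in CD8 cells binned by their summed Il2, Il3 and Csf2 UMIs (horizontal axis), with mSTAR1302 in red, vehicle in blue and the threshold of 3 UMIs as a dashed line. Ifng goes from 848 to 30850 CPM and from 702 to 26280 CPM between the first and last bins, and the last bins rest on 24 and 12 cells.

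Beyond Ifng, further cytokine genes were high, several of them from few cells. Of 20 listed effector cytokines and death ligands, 13 and 14 were measured, with 8 higher and 0 lower with mSTAR1302 (median 2.12 on the log2 scale) and 7 higher and 1 lower with vehicle (median 1.02). All genes tested gave 4.07% higher and 6.73% lower with mSTAR1302, and 1.57% and 2.59% with vehicle. Tnf, the gene of tumour necrosis factor, was at 150 against 67.0 CPM (2.24-fold, 1.98 to 2.53) and at 217 against 90.0 CPM (2.41-fold, 2.13 to 2.73). Lta, which encodes lymphotoxin alpha, was at 218 against 41.6 CPM with mSTAR1302 (5.23-fold) and at 72.4 against 42.0 CPM with vehicle (1.72-fold). Tnfsf14, the gene of LIGHT, was 4.65-fold and 2.87-fold higher. Tnf and Tnfsf14 reached 2-fold in both libraries, and Lta with mSTAR1302.

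Il13, a type 2 cytokine, was at 686 against 15.2 CPM with mSTAR1302 and detected in 34.0% of cytokine cells and 2.55% of other CD8 cells. With vehicle it was at 63.7 against 0.627 CPM and detected in 8.77% and 0.497%, with 93.7% of its UMIs in 5 cells. Il17a was at 122 CPM in the mSTAR1302 cytokine cells, but only 1.03% of them had a UMI, and Il10 was detected in 2.06% and 7.02%. Penk, the enkephalin precursor, was 8.37-fold and 3.31-fold higher, at 79.1 and 192 CPM in cytokine cells, but detected in only 5.15% and 18.4% of them. Spp1, the gene of osteopontin and abundant in macrophages, was at 94.5 CPM in vehicle cytokine cells and 483 CPM in other vehicle CD8 cells, and macrophage markers moved the same way there, whose part in this was not tested. Fasl, the gene of Fas ligand, was at 64.1 against 97.9 CPM and 79.8 against 91.5 CPM, and did not reach 2-fold.

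Several surface ligands of the tumour necrosis factor family were among the higher genes. Of 20 costimulatory receptors, ligands and activation markers, 18 were measured in each library, with 8 higher and 0 lower with mSTAR1302 (median 0.80) and 5 higher and 1 lower with vehicle (median 0.44). The shares over all genes were 4.07% higher and 6.73% lower with mSTAR1302, and 1.57% and 2.59% with vehicle. Tnfsf11, the gene of RANK ligand, was 7.80-fold higher with mSTAR1302 and 3.28-fold higher with vehicle, at 179 and 277 CPM. Cd40lg, the gene of CD40 ligand and better known in helper cells, was at 132 against 19.8 CPM (6.64-fold, 5.73 to 7.68) and at 45.6 against 14.1 CPM (3.24-fold, 2.44 to 4.27), and was detected in 45.9% and 28.9% of cytokine cells. Cd4 and Foxp3 were at 0 by the gate. Tnfsf8, the gene of CD30 ligand, was 7.04-fold and 3.21-fold higher, but with vehicle 5 cells held 49.6% of its UMIs and the fold was 0.789 after thinning.

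Tnfrsf9, which encodes the costimulatory receptor 4-1BB, was at 1036 against 399 CPM with mSTAR1302 (2.60-fold) and 887 against 597 CPM with vehicle (1.49-fold). Tnfrsf4, the gene of OX40, was 4.39-fold and 1.55-fold higher, and Cd160 3.76-fold and 1.66-fold. Crtam, a receptor of recently stimulated CD8 cells, was 2.61-fold and 2.58-fold higher. Tnfsf9, the ligand of 4-1BB, was 5.19-fold and 3.55-fold higher. Cd28 was lower in both, at 254 against 459 CPM and 176 against 356 CPM, and Cd69, an early activation marker, was at 716 against 1087 CPM and 765 against 739 CPM. Of the genes given here, Tnfsf11, Cd40lg, Tnfsf8, Tnfsf9 and Crtam thus reached 2-fold in both libraries, and Tnfrsf9, Tnfrsf4 and Cd160 did so with mSTAR1302. Further genes named by rule as higher in both libraries were Cd70 (12.6-fold and 7.50-fold, in 12.9% and 17.5% of cytokine cells), the retinoic acid binding protein gene Crabp2 (5.52-fold and 7.97-fold), Cd83 (7.50-fold and 3.61-fold) and Il1r2, the decoy receptor for interleukin-1 (6.64-fold and 3.03-fold).

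A minority of the transcription factors that the T cell receptor induces reached 2-fold. Of 28 listed, 27 were measured with mSTAR1302 and 26 with vehicle, with 5 higher and 1 lower (median 0.37) and with 1 higher and 0 lower (median 0.12). Over all genes tested, 4.07% were higher and 6.73% lower with mSTAR1302, and 1.57% and 2.59% with vehicle. The 5 of 27 higher with mSTAR1302 were thus a larger share than over all genes. Nr4a3, a nuclear receptor induced by antigen, was at 319 against 159 CPM (2.00-fold) and at 382 against 245 CPM (1.56-fold). Egr2 was 2.85-fold higher at 20.5 CPM and 2.19-fold at 21.4 CPM, and was the member at 2-fold in both libraries. Egr3 was 7.69-fold and 1.88-fold higher, Irf8 2.30-fold and 1.49-fold, and Rel, an NF-kappaB subunit, 2.07-fold and 1.75-fold. Nfatc1 was at 104 against 79.2 CPM and 131 against 116 CPM, and Nfatc2 at 15.0 against 35.3 CPM with mSTAR1302 (2.35-fold lower). Myc, glycolysis and respiratory genes stayed mostly under 2-fold, with medians of 0.46 and 0.45 for 13 and 12 measured genes of Myc and amino acid metabolism, 0.56 and 0.29 for 15 glycolysis genes, and 0.14 and 0.17 for 15 respiratory chain genes.

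Feedback regulators of these pathways were measured beside them. Of 25 measured genes, 5 were higher and 1 lower with mSTAR1302 and 1 was higher with vehicle. The shares over all genes tested were 4.07% higher and 6.73% lower with mSTAR1302, and 1.57% higher with vehicle. Counts of 1 gene are not read against these shares. Spry1, an inhibitor of Ras signalling, was 3.58-fold and 2.02-fold higher, and Rgs16 2.97-fold and 1.21-fold. Of the RNA-binding proteins that act on cytokine messages, Zfp36l2 was lower in both libraries, at 131 against 535 CPM (4.10-fold lower) and 193 against 440 CPM (2.28-fold lower). Zfp36 was at 101 against 118 CPM and 200 against 182 CPM, and Zc3h12a, the gene of Regnase-1, at 93.6 against 119 CPM and 109 against 113 CPM. Only Zfp36l2 of the 9 and 11 measured members reached 2-fold in both libraries.

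The IL-2 receptor was present on the RNA level in the cytokine cells and in the other CD8 cells. Il2ra, its alpha chain, was at 329 against 234 CPM with mSTAR1302 (1.41-fold, 1.30 to 1.52) and at 302 against 139 CPM with vehicle (2.17-fold, 1.96 to 2.40). Il2rb was at 302 against 278 CPM and 332 against 358 CPM. Stat5a, which carries the IL-2 signal, was 2.84-fold and 2.33-fold higher. Bcl2, a survival gene downstream of it, was at 87.6 against 256 CPM (2.92-fold lower) and 87.1 against 163 CPM (1.88-fold lower). Il3ra, Csf2ra, Csf2rb and Csf2rb2 were under 20 CPM in every set. Within the mSTAR1302 cytokine cells, Il2ra was at 270 CPM in those with an Il2 UMI and 353 CPM in those without one. With vehicle the order was the opposite, at 441 and 282 CPM.

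A minority of the inhibitory receptor genes reached 2-fold in cytokine cells. Of 16 listed genes, 10 and 9 were measured, with 4 higher and 0 lower (median 0.73) and 2 higher and 0 lower (median 0.21, or -0.13 with a filter of 10 CPM). The shares of higher genes were above the 4.07% and 1.57% over all genes tested. Havcr2, the gene of TIM-3, was at 348 against 87.4 CPM (3.98-fold) and 132 against 56.8 CPM (2.32-fold). Pdcd1, the gene of PD-1, was at 271 against 102 CPM (2.67-fold) and 306 against 258 CPM (1.19-fold), and Lag3 at 473 against 180 CPM (2.62-fold) and 389 against 337 CPM (1.16-fold). For Pdcd1 and Lag3 the cytokine cells of the libraries were closer to each other than the other CD8 cells were. Tox, a factor of exhausted cells, was at 34.5 against 21.6 CPM and 73.1 against 87.3 CPM, and Ctla4 at 136 against 205 CPM and 160 against 283 CPM.

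Cytotoxic genes showed no common direction. Of 17 measured, 5 were higher and 2 lower with mSTAR1302, and 2 were higher and 2 lower with vehicle. All genes tested gave 4.07% higher and 6.73% lower with mSTAR1302, and 1.57% and 2.59% with vehicle. Gzma was at 255 against 1184 CPM with mSTAR1302 (4.65-fold lower) and at 103 against 73.5 CPM with vehicle, and Gzmk at 10.5 against 87.7 CPM and at 0 against 18.0 CPM. Without the 10 cells richest in the 3 cytokines, vehicle Gzma was at 59.2 against 73.5 CPM, so its direction there rested on few cells. Gzmb was at 904 against 1349 CPM and 212 against 274 CPM, and Prf1, the gene of perforin, at 299 against 157 CPM and 298 against 221 CPM. Gzmc, Gzmd and Gzme were 3.04-fold, 2.19-fold and 2.08-fold higher with mSTAR1302, whereas with vehicle Gzmd was at 289 against 286 CPM and Gzmc at 10.7 against 32.7 CPM. Gzmf was at 172 against 198 CPM with mSTAR1302 and at 3.35 against 340 CPM with vehicle. With vehicle, 2.63% of cytokine cells and 10.9% of other CD8 cells had a Gzmf UMI. Serpinb6b, a granzyme inhibitor, was higher in both libraries (2.67-fold and 2.51-fold).

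Many genes of circulating, naive-like and interferon-exposed T cells were at least 2-fold lower. Of 13 and 11 measured naive and stem-like genes, 8 were lower and 1 higher with mSTAR1302 (median -1.59) and 5 lower and 0 higher with vehicle (median -0.40). Over all genes, 6.73% were lower and 4.07% higher with mSTAR1302, and 2.59% and 1.57% with vehicle. Ly6c2, a surface protein of circulating memory cells, was at 86.1 against 555 CPM (6.44-fold lower) and 21.4 against 155 CPM (7.20-fold lower), with Ly6c1 6.59-fold and 5.68-fold lower. Tcf7, the factor of stem-like cells, was at 12 against 51.8 CPM (4.31-fold lower) and 22.8 against 48.0 CPM (2.11-fold lower). Klf2, which keeps T cells in circulation, was 2.25-fold and 2.57-fold lower. Ccr7, the lymph node homing receptor, was the exception, at 210 against 102 CPM (2.07-fold higher) and 853 against 467 CPM (1.83-fold higher).

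Of 11 measured homing and residence genes, 7 were lower and 1 higher with mSTAR1302 (median -1.45), and 5 lower and 0 higher with vehicle (median -0.95). The shares of lower genes over all genes were 6.73% with mSTAR1302 and 2.59% with vehicle, and those of higher genes 4.07% and 1.57%. Itga4, the alpha 4 integrin chain, had the largest fold among the 12 genes named as lower in both libraries, at 4.50 against 78.6 CPM and 3.35 against 44.5 CPM, detected in 3.61% and 3.51% of cytokine cells. Cxcr3 was at 7.51 against 51.3 CPM and 5.36 against 21.2 CPM, and Ccr2 at 38.5 against 161 CPM and 18.1 against 46.2 CPM. Cxcr6, a receptor of tumour-resident cells, was at 401 against 323 CPM and 262 against 264 CPM. Of 19 and 17 measured interferon-response genes, 16 and 5 were lower and 0 higher (medians -1.55 and -0.78), among them Isg20 (5.12-fold and 3.39-fold lower) and Irf7 (3.46-fold and 2.30-fold lower). The gate capped Ifit1, Ifit3 and Rsad2 at the same 2 UMIs on both sides, although the cytokine cells were deeper. Relative to depth the cap was thus tighter for cytokine cells, and its part in these folds was not tested. The remaining genes named by rule as lower in both libraries were Acp5, Ifi214, Gm2682, Gimap7, Gramd3, Ddx58 and Sorl1, between 2.72-fold and 8.32-fold lower.

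**Figure D4:**
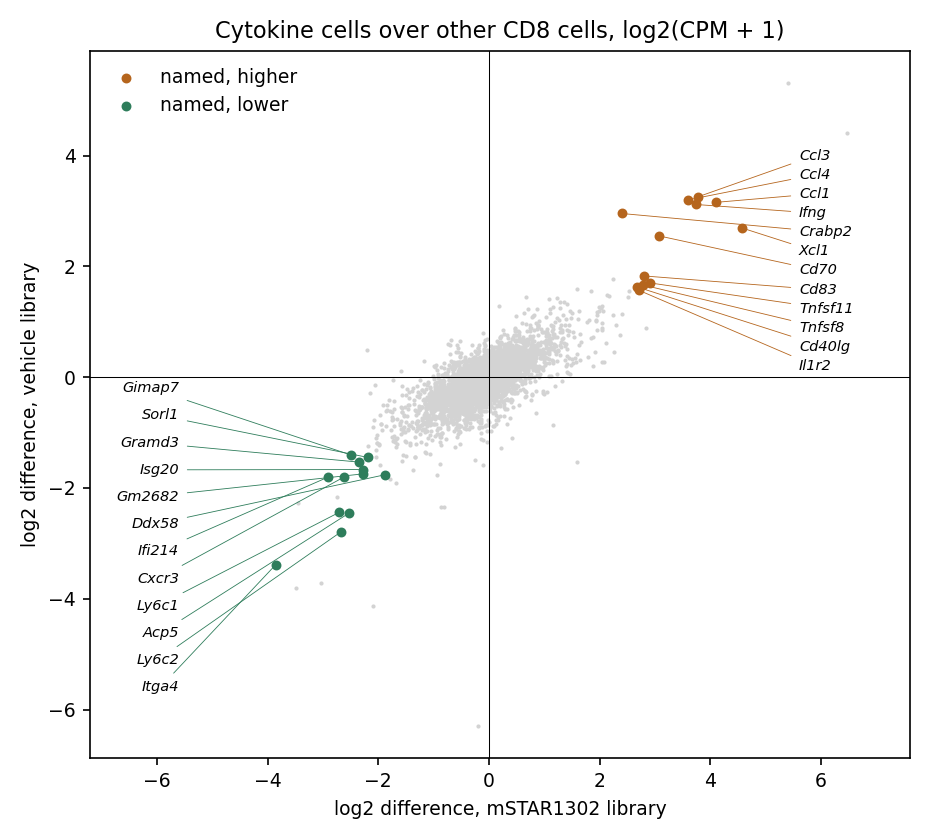
Difference between cytokine cells and other CD8 cells in log2(CPM + 1) with mSTAR1302 (horizontal axis) and with vehicle (vertical axis), 1 point per gene with at least 20 CPM on either side in both libraries, with the 12 highest (brown) and 12 lowest (green) genes chosen by rule and Il2, Il3 and Csf2 left out. Xcl1 lies furthest to the right and Itga4 furthest down to the left among the named genes.

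In all, 207 genes stood 2-fold or more above the other CD8 cells and 342 stood 2-fold or more below them with mSTAR1302, against 86 and 142 with vehicle. Among genes also detected in at least 10% of cells of the higher side, 51 were higher in both libraries, which is 25.1% of the 203 with mSTAR1302 and 68.0% of the 75 with vehicle. For lower genes, 63 were shared, 18.7% of 337 and 54.8% of 115. Under this detection limit 0 genes were 2-fold higher in 1 library and 2-fold lower in the other, while Gzmc, which missed it, was 3.04-fold higher with mSTAR1302 and 3.05-fold lower with vehicle. In cells of 6000 to 16000 UMIs, where median depths were 10417 and 8412 UMIs with mSTAR1302 and 11215 and 9799 with vehicle, 226 genes were higher and 314 lower with mSTAR1302 and 111 and 131 with vehicle. Without cells over 30000 UMIs, 113 genes were lower with vehicle.

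Between treatments, cytokine cells with mSTAR1302 had more of Il13, granzymes, Lta and Havcr2, and those with vehicle had more of Ccr7, Xcl1 and a set of genes that also separated the other CD8 cells. Of 5202 genes, 49 (0.942%) were 2-fold or more above vehicle with mSTAR1302 and 259 (4.98%) 2-fold or more under it. In the other CD8 cells 69 of 5328 (1.3%) were higher and 229 (4.3%) lower. Scaled by the median ratio of genes, which was -0.16 on the log2 scale, instead of the totals, 78 were higher and 159 lower. Ifng, Ccl3 and Ccl4 were 1.82-fold, 1.77-fold and 1.87-fold higher in mSTAR1302 cytokine cells, and 1.18-fold, 1.23-fold and 1.42-fold higher in the other CD8 cells. Within 6000 to 16000 UMIs the cytokine cells of the treatments were closer. Ifng was there at 9808 and 7901 CPM, Ccl3 at 7625 and 5872 CPM and Ccl4 at 10110 and 9357 CPM.

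Il13 was at 686 CPM with mSTAR1302 and 63.7 CPM with vehicle in cytokine cells (10.8-fold, 8.75 to 13.4), and at 15.2 and 0.627 CPM in the other CD8 cells. The fold was 39.7 without the 10 cells of each library richest in the 3 cytokines, 4.70 in cells of 6000 to 16000 UMIs and 3.09 after thinning, and it stayed above 1 in each. Lta was at 218 and 72.4 CPM (3.01-fold, 2.43 to 3.75), while in the other CD8 cells it was at 41.6 and 42.0 CPM. Havcr2 was at 348 and 132 CPM (2.63-fold, 2.25 to 3.10) and detected in 80.9% and 48.2% of cytokine cells. In the other CD8 cells Havcr2 was at 87.4 and 56.8 CPM, so the treatments were closer there. Depth differed between these sets of cytokine cells, with medians of 9522 and 12287 UMIs, and in the 6000 to 16000 window Havcr2 was 1.69-fold higher.

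Gzmb was 4.26-fold higher with mSTAR1302 in cytokine cells (904 and 212 CPM) and 4.93-fold higher in the other CD8 cells (1349 and 274 CPM). Ly6c2 and Ly6c1 were 4.01-fold and 4.22-fold higher in cytokine cells and 3.59-fold and 4.90-fold higher in the others. AA467197, little studied in T cells, was 8.65-fold and 2.97-fold higher. These genes thus differed between treatments in both kinds of CD8 cell. Gzmf had the largest fold, at 172 and 3.35 CPM (51.4-fold), but 5 cells held 92.4% of its UMIs with mSTAR1302, it was detected in 11.9% and 2.63% of cells, and within 6000 to 16000 UMIs its level was 17.8 and 3.41 CPM. In the other CD8 cells Gzmf went the other way, at 198 CPM with mSTAR1302 and 340 CPM with vehicle. Gzmc was at 127 and 10.7 CPM (11.9-fold), with 5 cells holding 60.2% of its UMIs with mSTAR1302 and all of them with vehicle. The other genes named by rule as higher were Lilr4b, Lilrb4a and the heat shock gene Hspa1b, between 3.24-fold and 4.05-fold.

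On the vehicle side, Ccr7 was at 210 and 853 CPM (4.07-fold lower with mSTAR1302, 3.64 to 4.55), and at 102 and 467 CPM in the other CD8 cells (4.60-fold lower). Igfbp7, the gene of a secreted growth factor binding protein, was at 45.0 and 253 CPM (5.61-fold lower) and Slc17a6, which encodes a glutamate transporter of neurons, at 41.5 and 231 CPM (5.55-fold lower), detected in 13.4% and 59.6% of cytokine cells. Both were also lower in the other CD8 cells with mSTAR1302, by 5.26-fold and 6.95-fold. Bdh2 was 6.97-fold and 6.90-fold lower in the 2 kinds of cell. Xcl1 and Ccl1 were 2.18-fold and 2.17-fold lower in cytokine cells and 8.16-fold and 4.24-fold lower in the others. For Ramp1, a calcitonin gene-related peptide receptor subunit, the fold of 8.44 rested on few cells, with 75.4% of the vehicle UMIs in 5 cells, and was 0.549 as mSTAR1302 over vehicle in the 6000 to 16000 window. Cd81, Lad1, Tctex1d2, Bmyc and Ntrk3 were also named by rule and were lower by 6.22-fold to 10.7-fold in cytokine cells and by 2.81-fold to 17.8-fold in the other CD8 cells.

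The T cell receptor beta segments Trbv13-2 and Trbv13-3, which encode the chains that mSTAR1302 is described as binding (chr6:41121396-41121832 and chr6:41130147-41130585, plus strand), were scarce in the cytokine cells of the treated mice. They took 10 of 79 Trbv UMIs in mSTAR1302 cytokine cells (12.7%, 6.24 to 22.1%) and 704 of 1549 in the other CD8 cells (45.5%, 43.0 to 48.0%), a difference of -32.8 percentage points (-39.0 to -23.4). With vehicle they took 6 of 38 (15.8%, 6.02 to 31.2%) and 73 of 548 (13.3%, 10.6 to 16.5%), a difference of 2.47 points (-6.44 to 17.3). The cytokine cells of the treatments differed by -3.13 points (-18.8 to 9.22), which was not detectable at this depth. Counted by cells, 8 of 57 mSTAR1302 cytokine cells with a Trbv UMI had one from these segments (14.04%), against 596 of 1170 other CD8 cells (50.9%).

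Read the other way, cytokine cells were 8 of the 604 CD8 cells with a Trbv13-2 or Trbv13-3 UMI (1.32%, 0.574 to 2.59%) and 49 of the 623 with a UMI of another segment only (7.87%, 5.88 to 10.3%) in the mSTAR1302 library. Both sets had close median depths of 7590.5 and 7720 UMIs. With vehicle the shares were 3 of 65 (4.62%, 0.962 to 12.9%) and 23 of 348 (6.61%, 4.24 to 9.75%). In the treated library the segments with the most UMIs in cytokine cells were Trbv19 with 14 of 79, Trbv14 with 11 and Trbv12-2 with 11, where the other CD8 cells had 6.26%, 3.81% and 18.2%. The 3′ libraries caught a Trbv UMI in a minority of cells, near-identical segments can exchange reads, and near-empty droplets of the mSTAR1302 library had 3 of 8, so the shares describe UMIs and not clones.

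Since Trbv13-2 and Trbv13-3 cells were common among the other CD8 cells only with mSTAR1302, the gene levels were also read in cells with a Trbv UMI of other segments, 49 and 574 cells with mSTAR1302, a choice made after the data were seen. Gzma was at 192 against 671 CPM there, Ly6c2 at 68.6 against 354 CPM and Ifng at 11230 against 1851 CPM. These genes kept their direction among cells of other segments, with smaller folds than in all CD8 cells, and 132 genes in place of 207 were at least 2-fold higher.

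**Figure D5:**
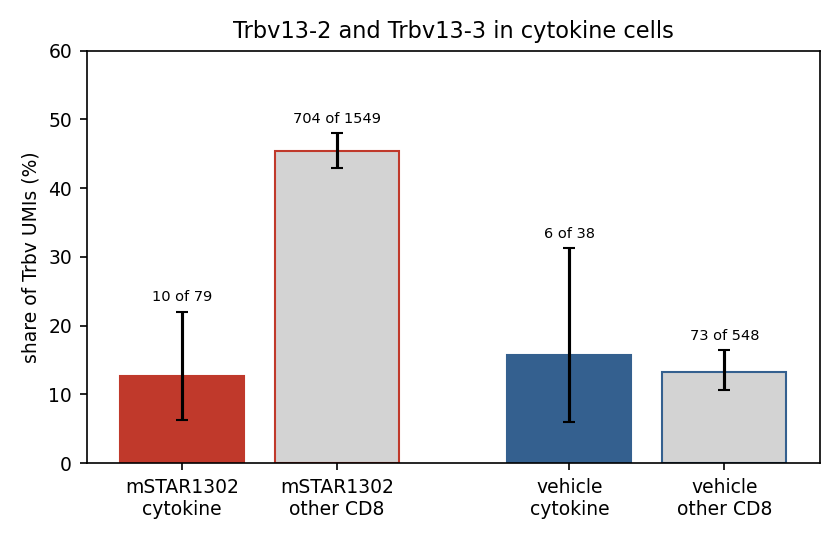
Share of Trbv UMIs that came from Trbv13-2 and Trbv13-3 (per cent, vertical axis) in cytokine cells (filled) and other CD8 cells (grey) of each library, with UMI counts above the bars and exact 95% Clopper-Pearson intervals as error bars. The share is 12.7% against 45.5% with mSTAR1302 and 15.8% against 13.3% with vehicle.

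Within the set, cells with an Il2 or Il3 UMI differed from cells with Csf2 alone. There were 103 and 91 such cells with mSTAR1302, at median depths of 9806 and 9368 UMIs, and 37 and 77 with vehicle, at 12667 and 12274. Ifng was at 19660 against 4770 CPM with mSTAR1302 (4.12-fold) and 16930 against 2192 CPM with vehicle (7.73-fold). Ccl4 was at 18920 against 5091 CPM and 16930 against 1728 CPM, and Xcl1 at 3060 against 652 CPM and 9113 against 1877 CPM. Cells with Csf2 alone thus carried the lower part of the chemokine and Ifng range, although their Ifng was still above the 956 and 808 CPM of the other CD8 cells. The split counted single Il2 or Il3 UMIs and followed the cytokine sum. Cells with Csf2 alone held 854 of 5983 and 884 of 3161 cytokine UMIs. A split at 10 or more cytokine UMIs also separated Ifng, at 18140 against 7608 CPM with mSTAR1302 and 13690 against 2819 CPM with vehicle. The 2 splits were not told apart. Klrd1, the gene of the CD94 receptor chain, was lower in the Il2 or Il3 cells, at 324 against 829 CPM and 661 against 1034 CPM. Gzme was at 112 against 347 CPM with mSTAR1302 and at 4.09 against 229 CPM with vehicle. Granzyme genes had no common direction in this split. Gzmb was at 1126 against 647 CPM and 225 against 206 CPM, and Gzma at 142 against 386 CPM and 299 against 7.97 CPM. In the vehicle library Gzmd had 0 UMIs in the 37 Il2 or Il3 cells and 431 in the 77 Csf2 cells, and Ccr7 was at 344 against 1101 CPM. Tnfrsf9 was at 1063 against 1005 CPM and 976 against 844 CPM, and Tnf at 134 against 169 CPM and 215 against 218 CPM, so Tnfrsf9 and Tnf were close in both kinds of cytokine cell. Other activation genes differed, in either direction. Crtam was 1.81-fold and 2.95-fold as high in the Il2 or Il3 cells, and Cd28 0.803-fold and 0.774-fold.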

How the data were processed

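The authors deposited unfiltered matrices of UMI counts per gene and barcode (32285 genes), in which the file headers name Cell Ranger matrix version 4, while the submitters' processing notes name Cell Ranger 6.0.1, FastQC, MultiQC 1.9, Seurat and mm10. Counts were used as deposited. The members and gene lists were chosen with earlier results of these data known. CPM is the sum of a gene's UMIs in a set of cells divided by the set's total, and ratios have exact conditional binomial 95% intervals. These cover counting of UMIs, which cluster in cells, so the spread between cells is wider. A gene was measured with at least 20 CPM on either side and counted as higher or lower at 2-fold. The genes that set the gate were left out of those counts, and list medians are differences of log2(CPM + 1). Thinning drew 3000 UMIs from each cell without replacement. Shares after thinning applied the threshold of 3 UMIs again to the thinned counts, while detection after thinning used the cells chosen at full depth. The text names the markers, the 12 highest and 12 lowest genes at 2-fold in both libraries (detected in at least 10% of the cells of the higher side), the 12 furthest each way between treatments ranked by the interval bound nearest to no change, and members of lists furthest from 0 or with a role the text explains. Some genes that the rule names are not reported here. Near-empty droplets are barcodes with 10 to 100 UMIs. Positions come from GENCODE M21 and promoter windows from RefSeq on GRCm38.p6, with entries matched for 6 of the 7 markers and windows used for 5. The code was tested on simulated data with known folds. The work used pandas 2.3.3 and NumPy 2.4.6 for tables, SciPy 1.17.1 for intervals and matplotlib 3.10.9 for figures, under Python 3.11.15.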

Additional observations from a re-analysis of the deposited data

Results flagged for a closer look

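Cells with at least 3 UMIs of Il2, Il3 and Csf2 also occurred outside the CD8 gate, in T cells that the comparisons did not use. Macrophage-like droplets had 0 of 24 and 0 of 70, which allows up to 14.2% and 5.13% by the exact interval, so they set no useful background for the shares here. Among cells with a Cd4 UMI and no Foxp3 UMI they were 40 of 791 with mSTAR1302 (5.06%, 3.64 to 6.82%) and 9 of 622 with vehicle (1.45%, 0.664 to 2.73%), at median depths of 6055 and 6415 UMIs. At 3000 UMIs a cell they were 23 of 690 (3.33%) and 3 of 545 (0.551%). Among Cd4 cells with a Foxp3 UMI they were 5 of 1365 with vehicle (0.366%, 0.119 to 0.853%). The difference between treatments was not tested, with 1 library each.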

How the results depend on the processing

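No paired analysis was possible because each treatment is 1 library. The difference in share of the CD8 gate was -4.74 points with a threshold of 2 UMIs, -0.127 after thinning and -1.09 in cells of 6000 to 16000 UMIs. The Trbv13-2 and Trbv13-3 difference with mSTAR1302 was -40.0 points with a mitochondrial limit of 5%, and with vehicle it could not be given a value after thinning. Genes lower with vehicle numbered 81 with a threshold of 2 UMIs and 223 with a threshold of 5. After thinning, higher and lower genes numbered 419 and 739 with mSTAR1302, 545 and 1014 with vehicle, and 557 and 954 between treatments. With a filter of 10 CPM, 531 were lower with mSTAR1302, 130 higher and 319 lower with vehicle, and 110 higher and 538 lower between treatments. With no filter the numbers were 1579 and 6920, 1327 and 6000, and 1797 and 2870. Median-ratio scaling gave 78 and 159 between treatments. Cells of other Trbv segments gave 132 higher with mSTAR1302 and 235 higher and 406 lower with vehicle. Directions turned after thinning for Tnfsf8 (0.789-fold) and Lilr4b (1.61-fold) with vehicle, for the IL-2 and STAT5 median with mSTAR1302 (-0.30) and for the cytokine receptor median between treatments (0.014, and 0.025 with median-ratio scaling). They also turned for Lilr4b (1.60-fold) and Gzmc (1.17-fold) with vehicle in cells of other segments, for the effector differentiation median between treatments with median-ratio scaling (0.013), and for the inhibitory receptor median with vehicle at 10 CPM (-0.13). The causes were not tested. Of the other values recomputed, 1294 stayed within tolerance and 419 moved beyond it. After thinning, the folds of Gzmc, Ly6c2 and Hspa1b between treatments had no value. Of the vehicle cytokine cells chosen at full depth, 1.77%, 3.54% and 5.31% still held a UMI of these genes after thinning. The folds between treatments given above for Gzmc, Ly6c2 and Hspa1b are from full depth and have no counterpart after thinning. Leaving out the richest cells, the 6000 to 16000 window and the limit to other Trbv segments were chosen after the data were seen. With 1 library each, variation between mice was not measured.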
